A study of Mus musculus with 12 samples.

Results

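C-type lectin receptors are membrane proteins with which macrophages and dendritic cells bind sugars and other ligands on microbes and on dying cells. The 10 genes described here are Clec4e, Clec4d, Clec4n, Clec7a, Clec10a, Mgl2, Cd209a, Cd209b, Cd209f and Clec12a. They were found as the rows of the count table whose Ensembl identifier maps to these symbols. All 10 had exactly 1 row among the 57010 genes of the table, and all 10 passed the filter on low counts, which kept 15943 genes.

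The libraries came from large peritoneal macrophages, the main macrophage type living in the resting peritoneal cavity, sorted from female mice as F4/80 high and MHC class II low cells. WT naive and Tim4KO naive mice were not injected, and the labels give no age for them. WT ID8 and Tim4KO ID8 mice were injected into the peritoneum at 8 weeks of age with ID8ZGO, a form of the mouse ovarian tumour line ID8 that carries ZsGreen and OVA, and their macrophages were taken 24 h later. Of the challenged cells, ZsGreen-positive ones alone were sorted, so challenge and uptake of tumour material cannot be told apart in these data. Tim4KO mice lack Tim4, a scavenger receptor for phosphatidylserine on dying cells, which is encoded by Timd4. The labels name no promoter, Cre line or strain, and do not say whether a library is 1 mouse or a pool. Each of the 4 groups held 3 libraries, numbered 1 to 3 in the labels, and p-values therefore measure the spread between these libraries, which may in part be technical.

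As background, the receptors differ in what they bind and how they signal. Mincle (Clec4e), MCL (Clec4d), Dectin-2 (Clec4n) and Dectin-1 (Clec7a) activate the kinase Syk and, through the adaptor Card9, the transcription factor NF-kB. The first of these also binds a protein released by dying cells. Clec10a and Mgl2 encode galactose-type lectins of macrophages and dendritic cells. Cd209a, Cd209b and Cd209f belong to the mouse family related to human DC-SIGN, whose best known members bind mannose-rich sugars. Clec12a encodes an inhibitory receptor that carries a tyrosine motif for phosphatases and senses uric acid crystals from dead cells.

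Library totals ran from 7358559 to 23170244 counts. Timd4 stood between 882.5 and 1489 CPM (a gene's count scaled to its library's size, with TMM factors) in the 6 WT libraries and between 1.38 and 7.71 CPM in the 6 Tim4KO libraries, so each library carried the Timd4 level of its genotype label. Summed markers of large peritoneal macrophages lay between 15500 and 24640 CPM in every library, and none of the 11 markers was under 1 CPM throughout. This sum was lower in all ID8 libraries (15500 to 18320 CPM) than in all naive ones (19960 to 24640 CPM). Single markers went both ways: with challenge the mean of Alox15 was lower and that of Adgre1 higher in both genotypes. One library stood apart: WT ID8 3 had 1502 CPM in 8 cell cycle genes, against 53.5 to 210.2 CPM in the other 11 libraries, and 5.75 CPM in olfactory and vomeronasal receptor genes, a measure of background reads, against 36.8 to 755 CPM. It also held 363 CPM of markers of small peritoneal macrophages and dendritic cells, against 103 and 118 CPM in WT ID8 1 and 2. Tests of the 10 receptors that rest on it are given with and without it. The gene lists and correlations below use all libraries.

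The receptors spanned a wide range of levels. Compared per kilobase of exonic length, Clec4d was the most abundant of the 10 in all 4 groups, with 168 ± 27.3 CPM per kb in WT naive (mean ± SD, n = 3, as for all group values). Clec7a came next in WT naive cells (72.7 ± 9.10 CPM per kb), before Clec4e (36.5 ± 4.81), Cd209b (24.9 ± 4.81) and Cd209a (21.8 ± 5.49). Cd209b and Cd209a lay within each other's spread. Clec10a (8.49 ± 0.750 CPM per kb), Cd209f (5.59 ± 3.80), Mgl2 (3.74 ± 0.584), Clec4n (3.58 ± 1.59) and Clec12a (1.45 ± 0.612) followed, and of these neighbours Mgl2 and Clec4n lay within each other's spread. In WT ID8 cells the order after Clec4d was Clec4e (68.7 ± 29.5), Clec7a (19.9 ± 4.63), Clec10a (11.8 ± 3.19) and Mgl2 (7.76 ± 4.69), and Cd209f was last with 0.0490 ± 0.00781. Naive cells of both genotypes shared the same first 7 places of the order.

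**Figure D1:**
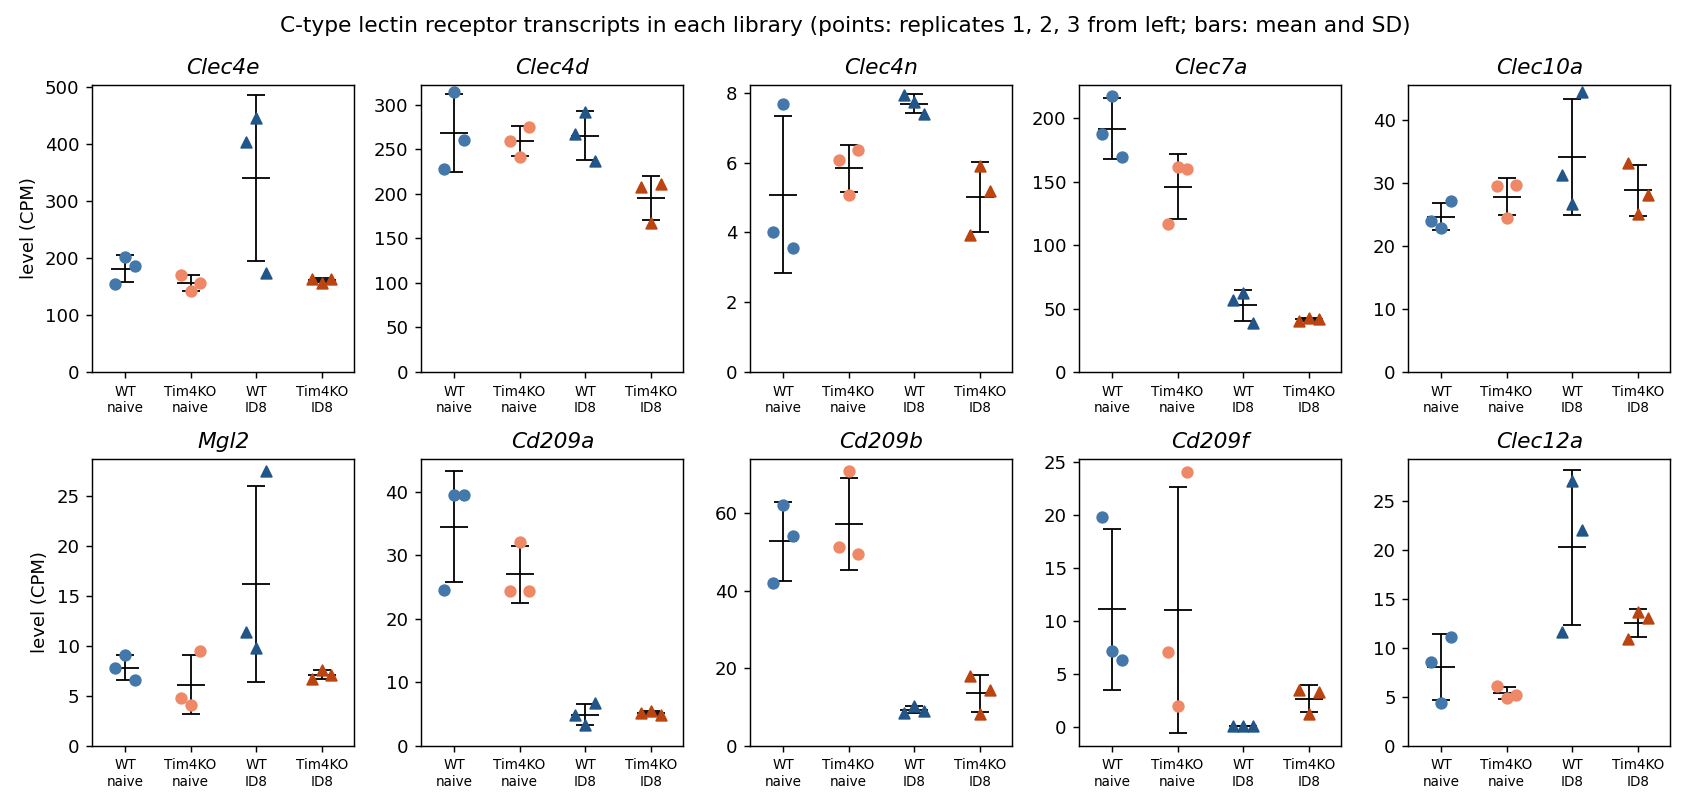
Level of each receptor transcript in every library, in CPM, with 1 panel per gene and its own axis. Circles are naive and triangles ID8 libraries, blue is WT and orange Tim4KO, the long tick is the mean and the whiskers the SD of 3 libraries. Clec7a, Cd209a and Cd209b are lower in all ID8 than in all naive libraries of either genotype, Clec4e is high in 2 of the 3 WT ID8 libraries, and Cd209f lies at 0.115 CPM or below in WT ID8.

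Challenge with uptake moved these receptors in both directions. In WT cells 7 of the 10 passed the test (edgeR's quasi-likelihood test, Benjamini-Hochberg adjusted p under 0.05 over all genes), where 31.8% of all tested genes did. Of these 3 rose (19.5% of all tested genes rose), namely Clec4e, Mgl2 and Clec12a, while 4 fell (12.3% of all tested genes fell), namely Clec7a, Cd209a, Cd209b and Cd209f. In Tim4KO cells 4 of the 10 passed, against 16.6% of all tested genes: 1 rose, Clec12a (11.5% of all tested genes rose), and 3 fell, Clec7a, Cd209a and Cd209b (5.06% of all tested genes fell). Naive and challenged libraries did not overlap for 6 of the 10 in WT (44.4% of all tested genes) and for 5 of the 10 in Tim4KO cells (41.9%). In WT cells the covariate fit and the fit to the WT libraries alone each called 4 of the 10, where each called 21.8% of all tested genes. The covariate came from the measure of background reads, at 755, 295 and 407 CPM in WT naive and 226, 78.8 and 5.75 CPM in WT ID8. Without overlap between these groups, the covariate fit cannot fully separate background reads from challenge in WT cells. The median log2 change over the 10 was 0.23 in WT and -0.32 in Tim4KO cells, beside -0.04 and -0.05 over all tested genes. These are bulk libraries, in which fewer cells that carry a transcript and less transcript per cell cannot be told apart.

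The genes called in both genotypes, and Clec4e, carry most of what follows, so the DNA just before their starts is shown. The windows are the 250 bases before the RefSeq start of the gene in GRCm38.p6, 5′ to 3′ on the gene's own strand, and the table used held such a window for 8 of the 10 genes (all but Clec4n and Clec10a), of which Clec7a had 2 windows and 1 is shown. Capitals mark matches, on either strand, to 5 motifs: an NF-kB motif, TTGCGCAA and the looser TTGCNNAA that includes it (both C/EBP), GAGGAA (PU.1 and other ETS factors) and TGANTCA (AP-1).
Clec7a, chr6:129472780-129473029 (- strand): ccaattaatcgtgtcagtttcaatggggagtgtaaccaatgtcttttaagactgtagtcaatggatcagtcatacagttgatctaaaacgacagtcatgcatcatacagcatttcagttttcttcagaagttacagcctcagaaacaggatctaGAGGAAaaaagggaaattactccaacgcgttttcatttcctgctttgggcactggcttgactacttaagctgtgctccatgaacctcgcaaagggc
Cd209a, chr8:3748985-3749234 (- strand): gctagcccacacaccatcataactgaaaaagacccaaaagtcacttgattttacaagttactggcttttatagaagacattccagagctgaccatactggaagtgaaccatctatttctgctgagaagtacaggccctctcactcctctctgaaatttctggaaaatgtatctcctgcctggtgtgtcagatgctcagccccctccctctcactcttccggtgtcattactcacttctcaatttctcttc
Cd209b, chr8:3926842-3927091 (- strand): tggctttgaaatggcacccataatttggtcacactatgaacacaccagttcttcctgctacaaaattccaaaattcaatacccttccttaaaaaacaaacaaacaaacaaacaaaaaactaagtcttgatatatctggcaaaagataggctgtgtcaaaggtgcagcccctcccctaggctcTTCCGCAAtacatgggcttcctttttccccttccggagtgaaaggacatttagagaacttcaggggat
Clec12a, chr6:129349994-129350243 (+ strand): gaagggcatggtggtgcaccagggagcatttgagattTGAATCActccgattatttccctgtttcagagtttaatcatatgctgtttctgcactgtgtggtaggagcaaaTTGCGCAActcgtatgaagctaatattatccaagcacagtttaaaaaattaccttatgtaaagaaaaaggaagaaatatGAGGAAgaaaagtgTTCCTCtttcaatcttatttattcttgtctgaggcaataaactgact
Clec4e, chr6:123289872-123290121 (- strand): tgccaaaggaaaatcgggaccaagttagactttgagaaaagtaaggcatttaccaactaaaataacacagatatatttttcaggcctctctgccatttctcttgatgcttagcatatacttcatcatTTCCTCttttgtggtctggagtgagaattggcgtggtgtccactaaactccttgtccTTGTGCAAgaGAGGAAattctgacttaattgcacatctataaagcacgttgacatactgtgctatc
The windows of the 3 genes that fell in both genotypes held these matches: Clec7a 1 to GAGGAA, Cd209b 1 to TTGCNNAA read on the other strand, and Cd209a 0. Clec12a held TTGCGCAA from base 140 to base 133 before its start, 2 matches to GAGGAA and 1 to TGANTCA. Clec4e held 1 match to TTGCNNAA and 2 to GAGGAA. Of 32817 promoter windows of this length, 0.165% held TTGCGCAA, 9.57% TTGCNNAA, 23.3% GAGGAA, 6.75% TGANTCA and 1.21% the NF-kB motif. A match describes these letters, and says nothing about whether a factor was bound.

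Among the receptors that activate Syk, Clec7a and Clec4e moved apart. Clec7a encodes Dectin-1, the receptor for beta-glucans of fungal walls. WT naive libraries 1, 2 and 3 held 188, 217 and 169.9 CPM, and their Tim4KO counterparts 117, 162 and 160.2 CPM. After challenge the WT libraries held 56.7, 61.95 and 38.7 CPM and the Tim4KO libraries 40.6, 42.3 and 41.5 CPM. Every challenged library was thus below every naive one. The log2 change was -1.87 in WT (SE 0.18, edgeR adjusted p = 6.06e-06) and -1.82 in Tim4KO cells (SE 0.18, edgeR adjusted p = 1.67e-05). The difference between these responses was 0.06 on the log2 scale (SE 0.25, edgeR adjusted p = 0.961).

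Clec4e encodes Mincle, which is known to be induced in macrophages by inflammatory stimuli. Naive libraries held 155, 202 and 187 CPM when WT and 170.5, 141.5 and 157 CPM when Tim4KO. WT ID8 1 and 2 reached 403 and 445.5 CPM, whereas WT ID8 3 had 174 CPM and lay within the naive range. The Tim4KO ID8 libraries, at 164, 157 and 163 CPM, also lay within the range of their naive counterparts. In WT cells Clec4e rose by a log2 change of 0.91 (SE 0.26, edgeR adjusted p = 0.0183), which became 1.25 in the fit that left out WT ID8 3 (edgeR adjusted p = 5.06e-07). That call was lost without WT naive 1 (edgeR adjusted p = 0.0693), WT naive 3 (0.0505) or WT ID8 2 (0.0684), under upper-quartile scaling (0.0554) and in the fit to the WT libraries alone (0.0935). In Tim4KO cells the change was 0.05 (SE 0.26, edgeR adjusted p = 0.921). The difference between the responses was -0.86 (SE 0.36, edgeR adjusted p = 0.668). With WT ID8 3 left out the difference was -1.19 (edgeR adjusted p = 0.00361), in a fit that called 2.12% of all tested genes.

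Clec4d and Clec4n lie beside Clec4e in 1 cluster on chromosome 6, where the 3 genes are direct neighbours among protein-coding genes. Clec4d encodes MCL, which pairs with Mincle. Naive libraries held 228, 315 and 261 CPM (WT) and 259.6, 242 and 275 CPM (Tim4KO), and challenged libraries 267, 292 and 237 CPM (WT) and 208, 167 and 211 CPM (Tim4KO). The Tim4KO ID8 libraries were below every library of the other groups. In WT cells the log2 change with challenge was -0.02 (SE 0.14, edgeR adjusted p = 0.940), and in Tim4KO cells -0.41 (SE 0.14, edgeR adjusted p = 0.0655). The Tim4KO change passed under 4 of the 7 alternative settings other than leaving out a library. Among these were DESeq2 (adjusted p = 0.00662) and the fit to the Tim4KO libraries alone (edgeR adjusted p = 0.0197). With a library left out, the Tim4KO change of Clec4d passed in 0 of 12 fits (edgeR adjusted p of 0.0653 to 0.379). Clec4n, which encodes Dectin-2, a receptor for mannans, was low throughout. It lay between 3.56 and 7.68 CPM in the naive libraries of both genotypes, between 7.39 and 7.94 CPM in challenged WT libraries and between 3.92 and 5.91 CPM in challenged Tim4KO libraries. Its log2 change was 0.58 in WT (SE 0.27, edgeR adjusted p = 0.106) and -0.23 in Tim4KO cells (SE 0.27, edgeR adjusted p = 0.615). Without WT naive 2 the change in WT was 1.06 with an edgeR adjusted p of 0.00872. Of the 12 fits that left out a library this was the only 1 to pass (edgeR adjusted p up to 0.310). The WT change of Clec4n passed in 0 of the 7 other settings (edgeR or DESeq2 adjusted p of 0.0928 to 0.299).

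**Figure D2:**
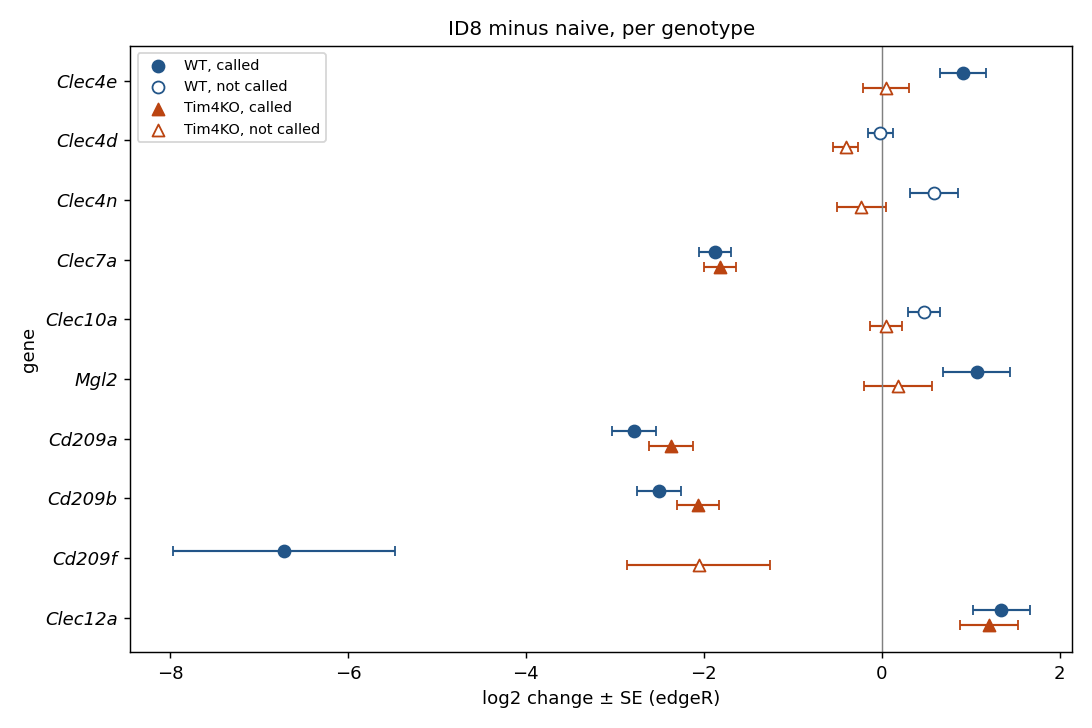
Log2 change of each receptor gene between ID8 and naive libraries (x axis, with SE) in WT (blue circles) and in Tim4KO (orange triangles), 3 libraries per group. Filled symbols passed the edgeR test. Clec7a, Cd209a and Cd209b lie left of 0 and Clec12a right of 0 in both genotypes, all filled.

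Cd209a and Cd209b fell in both genotypes. Cd209a encodes a DC-SIGN relative of the mouse and is known from dendritic cells and small peritoneal macrophages too. The naive level was 24.5, 39.5 and 39.5 CPM in the WT libraries and 24.4, 32.1 and 24.4 CPM in the Tim4KO libraries. After challenge it was 4.83, 3.265 and 6.66 CPM in WT and 5.15, 5.54 and 4.90 CPM in Tim4KO cells. The naive and challenged libraries did not overlap in either genotype. The log2 change was -2.79 in WT (SE 0.25, edgeR adjusted p = 3.49e-06) and -2.37 in Tim4KO cells (SE 0.25, edgeR adjusted p = 2.85e-05), with a difference between them of 0.41 (SE 0.34, edgeR adjusted p = 0.755). The 11 genes used as markers of those cells, Cd209a not among them, summed to 225 to 469.8 CPM (WT naive), 283 to 360.3 CPM (Tim4KO naive), 103 to 363 CPM (WT ID8) and 269 to 329 CPM (Tim4KO ID8). In WT cells 2 of the 3 challenged libraries lay below every naive one in this sum, and in Tim4KO cells the groups overlapped. Marker sums of some other cells were lower with challenge as well. In naive and ID8 libraries the 5 mast cell markers summed to 13.2 to 38.8 and 2.19 to 9.45 CPM, the 6 B cell markers to 8.335 to 21.8 and 3.44 to 8.52 CPM, and the 10 neutrophil markers to 176 to 257 and 71.9 to 114.7 CPM. Of the neutrophil markers Ly6g, Mpo, Elane, Camp and Ngp were under 1 CPM in every library. Most of the neutrophil sum was Csf3r, whose mean went from 204.5 to 72.1 CPM in WT and from 220 to 81.2 CPM in Tim4KO cells. Other neutrophil markers went the other way: S100a8, S100a9, Retnlg and Cxcr2 had higher means in ID8 than in naive libraries of both genotypes. For S100a8 the means went from 5.53 to 18.0 CPM in WT and from 6.14 to 15.9 CPM in Tim4KO cells. The part of these cells in the falls of Clec7a, Cd209a, Cd209b and Cd209f was not tested.

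Cd209b encodes SIGNR1, known for the uptake of bacterial polysaccharides by macrophages. Naive libraries held 41.8, 62.0 and 54.1 CPM of it in WT mice and 51.1, 70.8 and 49.4 CPM in Tim4KO mice. Challenged libraries held 8.52, 10.2 and 9.08 CPM in WT and 17.9, 8.305 and 14.3 CPM in Tim4KO. All challenged libraries were again below all naive ones. The log2 change was -2.50 in WT (SE 0.25, edgeR adjusted p = 1.22e-05) and -2.07 in Tim4KO cells (SE 0.24, edgeR adjusted p = 9.26e-05), and the difference between them was 0.44 (SE 0.33, edgeR adjusted p = 0.742). Across the 12 libraries log2(CPM + 1) of Clec7a, Cd209a and Cd209b correlated with Pearson r from 0.911 to 0.948. These points share the 4 groups, and the condition separates them.

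Cd209f varied widely among naive libraries and was nearly absent from the WT ID8 counts. WT libraries held 183, 108 and 90 counts when naive (19.8, 7.21 and 6.29 CPM) and 1, 1 and 2 counts after challenge (0.115, 0.0859 and 0.0913 CPM). Tim4KO libraries held 86, 15 and 427 counts when naive (7.05, 1.997 and 24.05 CPM) and 45, 13 and 58 after challenge (3.46, 1.2 and 3.34 CPM). The WT ID8 libraries lay below all others, and the Tim4KO ID8 libraries overlapped the Tim4KO naive ones. Pooled over 3 libraries, the level in WT naive was 104 times that in WT ID8, from 381 against 4 counts, with an exact 95% interval of 40.5 to 385 that covers counting error alone. The fall in WT passed the test (edgeR adjusted p = 0.00346), but not with the background measure as a covariate (edgeR adjusted p = 0.0673). In WT that measure did not overlap between the conditions, so the covariate fit cannot fully separate it from challenge. In Tim4KO cells the log2 change was -2.06 (SE 0.80, edgeR adjusted p = 0.117), which became -2.50 without Tim4KO naive 2 (edgeR adjusted p = 0.0414) and -0.76 without Tim4KO naive 3 (edgeR adjusted p = 0.536). The interaction for Cd209f was 4.66 (SE 1.58, edgeR adjusted p = 0.668, unadjusted p = 0.0154). Of its 50-base stretches 29.8% occur also in Cd209g, so how reads were divided between these genes is uncertain.

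The galactose-type lectins and Clec12a were low and were higher in some challenged groups. For Mgl2, WT libraries held 7.80, 9.08 and 6.64 CPM when naive and 11.4, 9.80 and 27.6 CPM after challenge, and Tim4KO libraries 4.76, 4.13 and 9.52 CPM and then 6.69, 7.57 and 7.09 CPM. The high value was that of WT ID8 3. That library also had the highest sum of small peritoneal macrophage and dendritic cell markers in its group (363 CPM), and 1502 CPM of cell cycle genes. WT naive 1 held 469.8 CPM of the former markers beside 7.80 CPM of Mgl2. The part of either trait in the result was not tested. The rise in WT cells, a log2 change of 1.07 (SE 0.37, edgeR adjusted p = 0.0447), became 0.45 without that library (edgeR adjusted p = 0.198). It also missed the threshold without any 1 of the WT naive libraries (edgeR adjusted p of 0.0605 to 0.127), without Tim4KO ID8 2 or 3 (0.05985 and 0.0556) and in 5 of the 7 other settings. In Tim4KO cells the change was 0.18 (SE 0.38, edgeR adjusted p = 0.787).

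Clec10a, the neighbour of Mgl2 on chromosome 11, was at 23.9, 22.8 and 27.0 CPM in naive and 31.3, 26.55 and 44.4 CPM in challenged WT libraries. Tim4KO libraries held 29.4, 24.4 and 29.6 CPM when naive and 33.2, 25.1 and 28.0 CPM after challenge. Its highest value was again in WT ID8 3. The log2 change was 0.48 in WT (SE 0.18, edgeR adjusted p = 0.0528), near the threshold, and 0.05 in Tim4KO cells (SE 0.18, edgeR adjusted p = 0.889). Without WT ID8 3 the change in WT was 0.25 (edgeR adjusted p = 0.261). Clec10a passed in WT in 2 of the 7 other settings, the fit without a filter among them (0.0206), and in 5 of the 12 fits that left out a library. Clec10a and Mgl2 share sequence, with 9.02% of the 50-base stretches of Clec10a and 13.1% of those of Mgl2 found in other genes, each other among them.

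Clec12a encodes the inhibitory receptor of the set. WT libraries went from 8.56, 4.41 and 11.1 CPM to 11.6, 27.1 and 22.1 CPM, and Tim4KO libraries from 6.07, 4.93 and 5.24 CPM to 10.9, 13.7 and 13.1 CPM. Every challenged library was above every naive library of its genotype. The log2 change was 1.35 in WT (SE 0.32, edgeR adjusted p = 0.00605) and 1.21 in Tim4KO cells (SE 0.33, edgeR adjusted p = 0.0214). The difference between the responses was -0.14 (SE 0.45, edgeR adjusted p = 0.946). In Tim4KO cells the call was lost without Tim4KO naive 2 or 3 or Tim4KO ID8 2 or 3, with edgeR adjusted p of 0.0593 to 0.0879 and a log2 change of 1.17 to 1.197. In WT cells it was lost in the covariate fit (edgeR adjusted p = 0.0619), where covariate and challenge are in part confounded, and in the fit to the WT libraries alone (0.0620).

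Loss of Tim4 by itself was then examined in naive cells. None of the 10 receptors passed the test (0 of 10, against 0.0439% of all tested genes), and 1 of them, Clec7a, had an unadjusted p under 0.05 in edgeR, which 6.27% of all tested genes had. DESeq2 called 0 of the 10 as well. Clec7a was lower in Tim4KO naive, 146 ± 25.6 against 192 ± 24.0 CPM, without overlap between the libraries (log2 difference -0.39, SE 0.17, edgeR adjusted p = 0.778). Such separation was seen for 14.2% of all tested genes. Log2 differences of the other 9 genes ran from -0.56 for Clec12a to 0.20 for Clec4n, with edgeR adjusted p from 0.821 to 0.994.

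Among challenged cells, 0 of the 10 receptors passed the genotype test in edgeR, against 0.0565% of all tested genes, while 7 of the 10 had an unadjusted p under 0.05, against 12.1% of all tested genes. The median log2 difference over the 10 was -0.39, beside 0.01 over all tested genes. Libraries of the 2 groups did not overlap for 5 of the 10, against 15.6% of all tested genes: Clec4e, Clec4d, Clec4n and Mgl2 were lower and Cd209f was higher in Tim4KO ID8. Because both genotype comparisons and both challenge comparisons share libraries, these values restate in part what was given above.

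The genotype call for Clec4e depended on the setting. Challenged WT libraries averaged 341 ± 146 CPM and challenged Tim4KO libraries 162 ± 4.01 CPM, a log2 difference of -1.08 (SE 0.26, edgeR adjusted p = 0.169). Leaving out WT ID8 3 gave -1.39 (edgeR adjusted p = 4.34e-06), in a fit that called 5.74% of all tested genes and no other receptor of the set. Clec4e was also called by DESeq2 (adjusted p = 0.00176), with the background measure as a covariate (0.01475 in edgeR) and with low genes kept in (1.31e-08 in edgeR). DESeq2 called 3 of the 10 (1.67% of all tested genes), the fit without a filter 2, Clec4e and Mgl2 (0.52%), and the covariate fit 1 (1.19%). When the 12 libraries were left out in turn, the adjusted p for this gene ran from 4.34e-06 to 0.640.

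Clec4d differed by -0.44 (SE 0.14, edgeR adjusted p = 0.277) and was called by DESeq2 (adjusted p = 0.0410). Mgl2 differed by -1.21 (SE 0.38, edgeR adjusted p = 0.268), which became -0.57 without WT ID8 3, and Clec4n by -0.62 (SE 0.27, edgeR adjusted p = 0.384). Cd209f was the member with the highest ratio: pooled counts of 116 against 4 made the level in Tim4KO ID8 29.7 times that in WT ID8, with an exact 95% counting interval of 11.3 to 111. The edgeR adjusted p for Cd209f was 0.255 and that of DESeq2 0.00482. Clec7a (-0.34), Clec12a (-0.70), Clec10a (-0.25), Cd209a (0.05) and Cd209b (0.55) had edgeR adjusted p from 0.390 to 0.956.

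**Figure D3:**
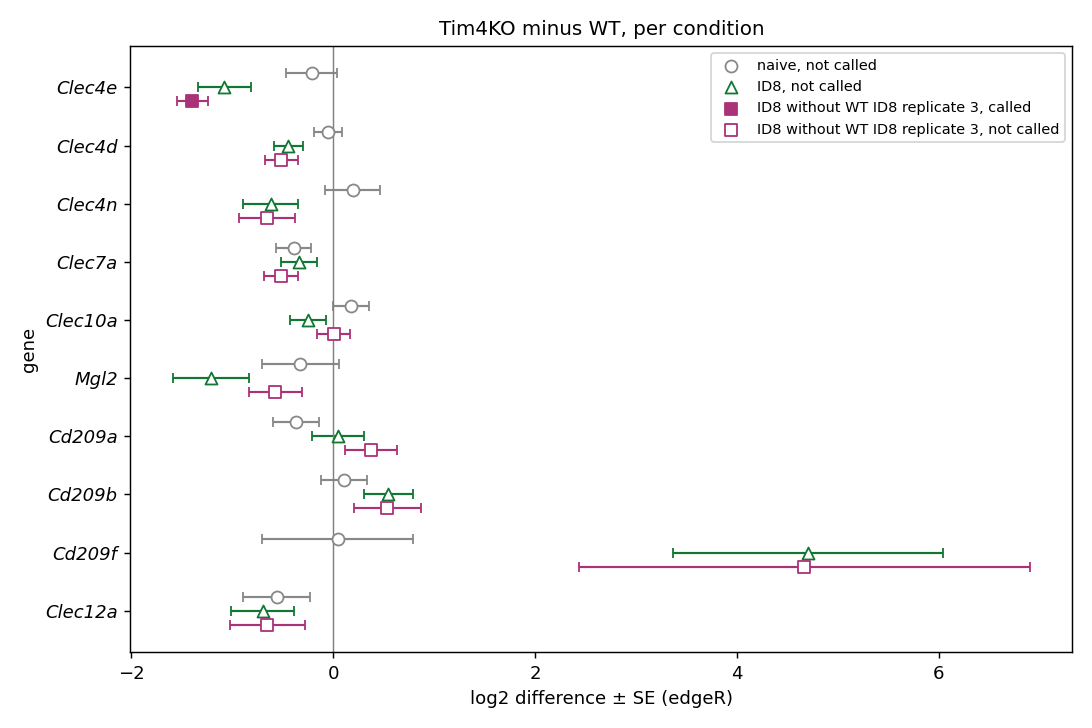
Log2 difference between Tim4KO and WT libraries for each receptor gene (x axis, with SE), in naive cells (grey circles), in ID8 cells (green triangles) and in ID8 cells without WT ID8 3 (purple squares). Filled symbols passed the edgeR test. The 1 filled symbol is Clec4e without WT ID8 3, at -1.39.

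The interaction tested whether the challenge responses differed with genotype. None of the 10 receptors passed (0 of 10, against 0% of all tested genes) in edgeR, 2 had an unadjusted p under 0.05 (Clec4e and Cd209f; 7.44% of all tested genes), and DESeq2 called 0 of the 10. A receptor called in 1 genotype, as Clec4e, Mgl2 and Cd209f were in WT, is thus not shown to respond differently in the other. Clec4e passed without WT ID8 3, as given above, and when low genes were kept in (-0.91, adjusted p = 0.0399 in edgeR, where 0.144% of genes were called).

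Other genes of the family and pathway were taken from lists written from general knowledge, but with earlier results of these data known. Of 44 further C-type lectin-like genes, 27 were tested. In WT cells 2 rose with challenge and 8 fell (19.5% and 12.3% of all tested genes did), with a median log2 change of -0.68 beside -0.04 over all tested genes. In Tim4KO cells 0 rose and 3 fell (11.5% and 5.06% of all tested genes did), with a median of -0.53 beside -0.05. Colec12, a scavenger receptor with a collagen stem, fell in both, with log2 changes of -0.92 in WT (SE 0.15, edgeR adjusted p = 0.000540) and -0.84 in Tim4KO (SE 0.15, edgeR adjusted p = 0.00197). Clec5a, a Syk-coupled receptor of myeloid cells, fell as well (log2 changes of -0.96 and -1.23, edgeR adjusted p of 0.00359 and 0.00149). Cd209g, the gene that shares sequence with Cd209f, was at 3.97 ± 3.504 CPM in WT naive and at 0, 0 and 0.0456 CPM in WT ID8 (edgeR adjusted p = 0.000241), and at 0.894 ± 0.216 CPM in Tim4KO ID8. Clec4g fell in both genotypes, with log2 changes of -3.08 in WT (edgeR adjusted p = 0.00419) and -2.08 in Tim4KO cells (edgeR adjusted p = 0.0391). It was scarce throughout, with means of 1.34 CPM (WT naive), 1.11 CPM (Tim4KO naive), 0.164 CPM (WT ID8) and 0.247 CPM (Tim4KO ID8). The challenged levels rest on a few counts per library. In both genotype comparisons and in the interaction 0 of the 27 passed in edgeR, with 1, 6 and 1 of them at an unadjusted p under 0.05 (6.27%, 12.1% and 7.44% of all tested genes).

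All 25 genes listed for signalling behind these receptors were tested, and in WT cells 5 rose and 1 fell with challenge, with a median log2 change of 0.04 beside -0.04 over all tested genes. Of all tested genes 19.5% rose and 12.3% fell. Among those that rose were the phosphatase gene Ptpn11 (log2 change 0.63, SE 0.11, edgeR adjusted p = 0.000878) and the phospholipase gene Plcg2 (0.435, SE 0.12, edgeR adjusted p = 0.0123). In Tim4KO cells 0 rose and 1 fell, namely Nfkb1, an NF-kB subunit gene (log2 change -0.44, SE 0.14, edgeR adjusted p = 0.0431). The median in Tim4KO cells was -0.06, beside -0.05 over all tested genes, of which 11.5% rose and 5.06% fell. In the interaction 0 of the 25 passed in edgeR and 2 had an unadjusted p under 0.05 (7.44% of all tested genes).

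Of 18 cytokine and other genes known to be induced through Syk and Card9, 13 were tested. Challenge raised 8 of them in WT cells and lowered 1, with a median log2 change of 1.65 beside -0.04 over all tested genes, of which 19.5% rose and 12.3% fell. It raised 3 and lowered 1 in Tim4KO cells, with a median of 0.74 beside -0.05 over all tested genes, of which 11.5% rose and 5.06% fell. Il6, an inflammatory cytokine, rose from 3.53 to 26.5 CPM in WT (log2 change 2.87, SE 0.35, edgeR adjusted p = 6.32e-05) and from 2.31 to 9.48 CPM in Tim4KO cells (2.01, SE 0.36, edgeR adjusted p = 0.00200). The chemokine gene Ccl4 rose by 3.16 in WT (edgeR adjusted p = 5.38e-05) and by 2.08 in Tim4KO cells (edgeR adjusted p = 0.00318), and Ccl3 rose by 2.19 in WT (edgeR adjusted p = 0.00319). Nlrp3, the inflammasome sensor, was the gene that fell in each genotype, with log2 changes of -0.88 in WT (edgeR adjusted p = 0.00624) and -0.94 in Tim4KO cells (edgeR adjusted p = 0.00783). Between genotypes in challenged cells 12 of the 13 had a negative log2 difference, with a median of -0.94 beside 0.01 over all tested genes, but 0 of them passed in edgeR and 6 had an unadjusted p under 0.05, against 12.1% of all tested genes. In the interaction 0 of the 13 passed in edgeR and 0 had an unadjusted p under 0.05, against 7.44% of all tested genes. A different response in Tim4KO cells is thus not shown for this list. These genes answer to many other receptors too.

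**Figure D4:**
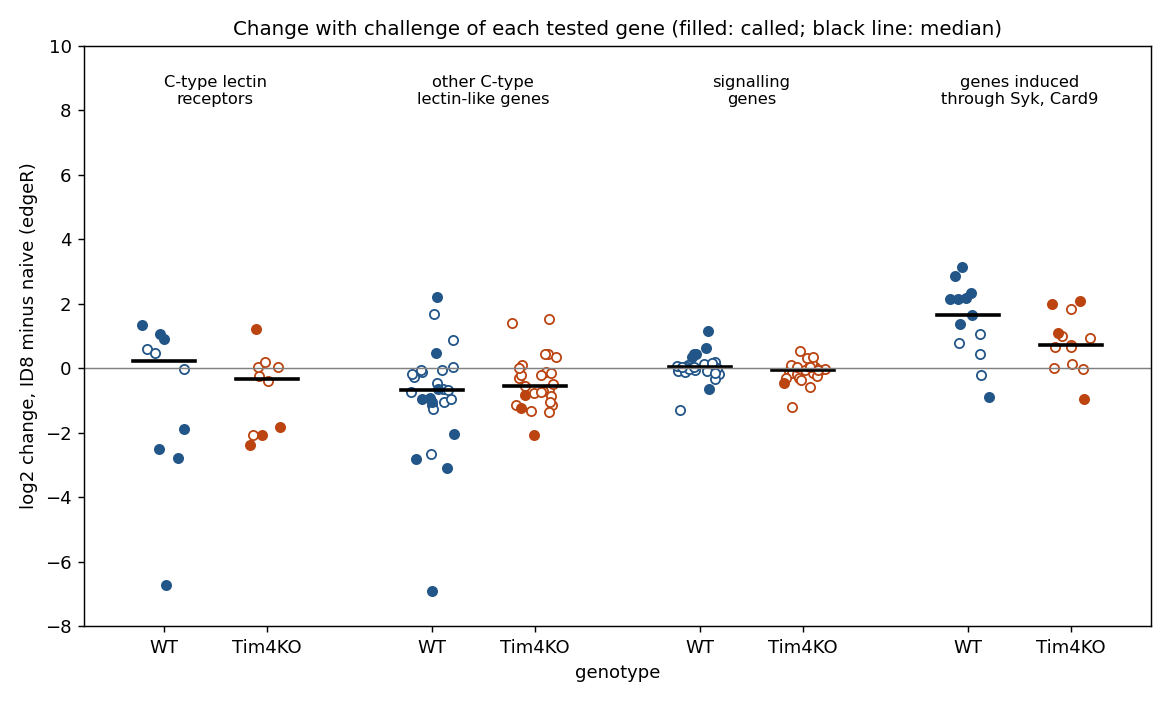
Log2 change between ID8 and naive libraries (y axis) of every tested gene, as points, for the 10 receptors, 27 further C-type lectin-like genes, 25 signalling genes and 13 genes induced through Syk and Card9, in WT (blue) and Tim4KO (orange). Filled points passed the edgeR test and black lines are medians, which for the last list lie at 1.65 in WT and 0.74 in Tim4KO.

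The genes most like each receptor, given here for 9 of the 10, were looked up over the 12 libraries among 9718 others with a mean of at least 5 CPM, by Pearson r of log2(CPM + 1). Clec7a was most like Cebpd (r = 0.975), Cd209a like Hexa (0.986) and Mfge8 (0.980), Cd209b like Prkd3 (0.983), and Clec4e like Rpf1 and Zcchc10 (0.968 each). For Cd209f these were Hal (0.939) and Retnla (0.931), for Mgl2 Bora (0.907), for Clec10a Fancc (0.892), for Clec4d Matr3 (0.928) and for Clec4n Nkap (0.895). With 4 groups and 2 conditions behind 12 points, high values arise for many genes, and they are given as a description.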

How the data were processed

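Sorted cells gave RNA (RNeasy micro kit) for SMART-Seq mRNA LP libraries, per the labels' protocols. The authors deposited raw counts per Ensembl gene for 12 libraries in 1 table. The submitters' processing notes list FastQC, STAR 2.5 and a pair of mouse genome builds without roles. The counting program, annotation release, strand setting and treatment of multi-mapping reads are not given in the sources used here. Exonic lengths, neighbours and 52029 gene names were taken from GENCODE vM21, so lengths may differ from those behind the counts. There no exon of the 10 receptor genes overlaps an exon of another gene.

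Counts were tested two-sided with edgeR 4.0.16 in R 4.3.3 (TMM scaling, filterByExpr, 1 robust quasi-likelihood fit with a mean per group, 8 residual degrees of freedom), in 5 comparisons, with a script tested on simulated data. CPM uses the kept genes' total times the TMM factor, and SE was derived from the log2 change and F. A count of 3 equalled 0.137 to 0.399 CPM, and such limits cover counting error alone. Alternatives were RLE or upper-quartile scaling, no filter, DESeq2 1.42.0, a replicate block, a covariate from 1410 olfactory and vomeronasal receptor genes, fits to the compared groups alone, and leaving out each library. Receptors, lists and tests were chosen with earlier results of these data known. All 10 receptors are named in each comparison, and up to 3 called genes with the smallest p from each list. A pair of genes that this rule names is not reported here. Promoter windows came from RefSeq (GRCm38.p6).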

Additional observations from a re-analysis of the deposited data

How the results depend on the processing

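Clec7a, Cd209a and Cd209b fell in both genotypes under each alternative and with any 1 library left out, and no call reversed. With any 1 library left out, 5 to 8 receptors passed in WT challenge, 3 to 4 in Tim4KO challenge, 0 to 1 between challenged genotypes, 0 to 1 in the interaction and 0 between naive genotypes. Among the other settings, 4 receptors passed in WT challenge with the background covariate and 4 in the fit to the WT libraries alone. Between challenged genotypes 2 passed without a filter, 3 in DESeq2 and 1 with the covariate, and in the interaction 1 passed without a filter.

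Over all genes, the naive genotype count of 7 became 59 without a filter, 52 in DESeq2, 2 in the fit to those groups alone and 1 to 29 with a library left out, the highest without WT ID8 3. The challenged genotype count of 9 became 264 without a filter, 266 in DESeq2, 189 with the covariate and 1 to 997 with a library left out, the highest again without WT ID8 3. The WT challenge count of 5067 became 3102 in the fit to those groups alone and 3362 (without WT naive 3) to 7230 with a library left out. The Tim4KO challenge count of 2642 became 3827 in the fit to those groups alone and 1222 (without Tim4KO naive 2) to 3595 with a library left out. The interaction count of 0 became 73 without a filter, 11 in DESeq2, 2 with the covariate and 0 to 368, the highest without WT ID8 3.

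Replicate numbers showed no clear pairing of the libraries, judged by correlations of the deviations from group means. Of 18 same-numbered pairs (-0.098 to 0.354) 4 exceeded 0.1, and of 36 other-numbered pairs (-0.368 to 0.319) 6 did. With 3 libraries a group this check cannot exclude pairing. With the replicate block, 3 genes were called between naive and 14 between challenged genotypes. In WT challenge the block ended the call of Mgl2 (adjusted p = 0.0537) and made one of Clec10a (0.0362). Upper-quartile scaling moved the median log2 change of all genes in WT challenge from -0.04 to -0.28, with 1799 of 5307 called genes higher instead of 3105 of 5067. In Tim4KO challenge 1322 of 2716 were then higher, instead of 1836 of 2642. At 1 to 4 counts, the challenged WT level of Cd209f is limited by depth.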
